A study of Mus musculus with 36 samples.

Results

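The cytosolic ribosomal protein genes were followed through the first postnatal week in mouse kidneys with and without deletion of Pkd1 or Pkd2. The genes were chosen by symbol (Rpl or Rps with a number and an optional a, x or l, the P-stalk genes Rplp0 to Rplp2, and Rpsa), without the mitochondrial Mrp genes and the Rps6k kinases. Of 20458 genes in the count table, 81 carried such a symbol, and 67 had 10 or more counts in at least 18 of the 36 libraries. These 67 genes comprised 29 small subunit genes (Rpsa among them), 35 large subunit genes and the 3 P-stalk genes.

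Each library was made from total RNA of a C57BL/6 mouse kidney collected at postnatal day 1, 3 or 7 (P1, P3 and P7). WT mice were Pkd1f/f or Pkd2f/f and thus carried the same floxed alleles as the KO mice, which had the HoxB7-Cre transgene in addition (Pkd1f/f:HoxB7-Cre or Pkd2f/f:HoxB7-Cre). Each of the 12 groups held 3 libraries. HoxB7-Cre acts in the collecting duct lineage, whereas all cells of the kidney contributed RNA, so that fewer cells of a type and less RNA per cell cannot be told apart.

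Cytosolic ribosomes translate nearly all messenger RNA of a cell, and a ribosome carries a single copy of most of its proteins. The messages of these proteins begin with a run of pyrimidines, the 5′ terminal oligopyrimidine tract, through which mTOR signalling and Larp1 control their translation and stability. Growing and dividing cells, such as those of the newborn kidney while nephrons are still being formed, are known for high ribosome production.

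The start of the message is given here for genes on which the results turn and whose start in the RefSeq promoter table of GRCm38.p6 lies at the edge of the gene. Rpl12, Rpl15 and Rpl35 passed the test at P7 in both models, Rpsa and Rps26 were among the largest falls with age, Rps6 is the substrate of the S6 kinases, and Rps24 was an exception among the genes. Each window spans 10 bases before the start and 20 from it, read 5′ to 3′ on the strand of the gene, and the capitals mark its longest run of C and T.
Rpl12, chr2:32961702-32961731, plus strand: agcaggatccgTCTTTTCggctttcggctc
Rpl15, chr14:18270967-18270996, minus strand: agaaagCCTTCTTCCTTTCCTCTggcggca
Rpl35, chr2:39005112-39005141, minus strand: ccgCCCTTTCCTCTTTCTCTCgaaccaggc
Rpsa, chr9:120127756-120127785, plus strand: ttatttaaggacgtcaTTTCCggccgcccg
Rps26, chr10:128626487-128626516, minus strand: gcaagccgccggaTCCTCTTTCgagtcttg
Rps6, chr4:86857348-86857377, minus strand: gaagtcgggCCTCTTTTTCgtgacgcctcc
Rps24, chr14:24490668-24490697, plus strand: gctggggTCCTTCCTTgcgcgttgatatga
The run was 18 bases long in Rpl35, 17 in Rpl15 and 10 in Rps6, and only 5 in Rpsa. A window was found for 49 of the 67 genes, and 24 of these (49.0%) held a run of 7 or more pyrimidines, against 17.9% of 27025 genes with a window. On the opposite strand, where a run of C and T is a run of purines in the message, the shares were 2.04% and 20.3%. The letters CTTTC stood in the message strand of the window in 22.4% of the ribosomal protein genes and 3.69% of all genes, or in 24.5% and 7.17% with both strands searched.

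Between 7179152 and 15850818 counts were obtained per library, and between 4.996% and 10.3% of them lay on the 67 genes. Library checks gave 3 facts that bear on the results. In the Pkd1 model both P1 libraries numbered 3 stood apart, with 10.3% (WT) and 10.2% (KO) of their counts on these genes against 7.52% to 8.13% in the other P1 libraries. At P7 of the same model, all 3 KO libraries and 0 of 3 WT libraries had over 100 counts of the Y-linked genes Ddx3y, Eif2s3y, Kdm5d and Uty, so that genotype and the sex of the mice cannot be told apart in that comparison. The transcript of the deleted gene passed the test only in Pkd2 KO at P7, with log2 fold change -0.29 (adjusted p = 0.0115, edgeR's quasi-likelihood test). It had -0.20 (Pkd1) and -0.21 (Pkd2) at P1 and between -0.073 and 0.10 in the other 3 comparisons of KO with WT, without passing. According to the paper the floxed sites flank only some exons of either gene, while the counts cover whole transcripts in all kidney cells. These values are therefore no measure of how complete the deletion was.

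**Figure D1:**
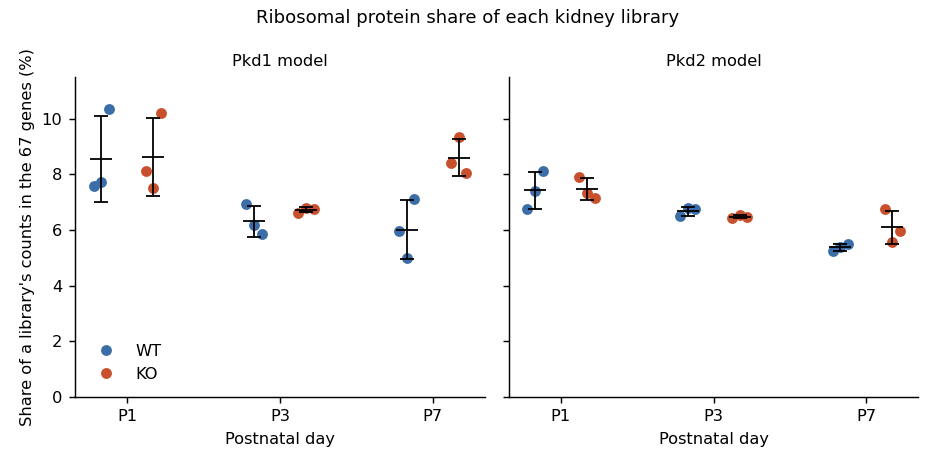
Share of the counts of each library that lay on the 67 ribosomal protein genes (vertical axis, percent) against postnatal day, for WT (blue) and KO (red) kidneys of both models. Points are libraries and bars the mean ± SD of 3. The share fell in WT kidneys of both models and stood at 8.05% to 9.35% in Pkd1 KO kidneys at P7.

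Levels of single genes were expressed as CPM, counts scaled by library size and by TMM factors over all 36 libraries, and genes were compared with each other only per kilobase of transcript. The median of the 67 genes was 1315 CPM per kilobase, with a middle range of 1026 to 1617. The highest levels per kilobase were those of Rpl41, which encodes the smallest ribosomal protein (2895), Rps12 of the small subunit (2741) and the stalk gene Rplp1 (2538). The lowest were Rps20 (232), Rps27l (207), a paralog of Rps27 known as a p53 target, and Rps24, whose 6.85 rests on few counts and is not a usable level. The value of Rps20 rests on a gene model of 3706 nt, and per coding kilobase it ranked 11 of 67.

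Of the 14 genes that matched by symbol but failed the count filter, several encode core proteins of every ribosome. Rpl26, Rpl38, Rps27 and Rps27a, the last of which makes ubiquitin fused to a ribosomal protein, had 0 counts in all 36 libraries. Rpl19, Rpl22, Rpl30, Rpl31, Rpl34 and Rpl35a averaged between 1.06 and 6.94 counts per library, and Rps24, a member, 47.6. In contrast, the other 66 members averaged 1362 to 31810 counts. All 10 genes with more than 1 RefSeq transcript in the table lay at or under 47.6 counts, whereas each of the 66 had 1 transcript. Rpl26 and Rps27 were at 0 with 1 transcript listed. Since the count table keeps no record of reads that matched several transcripts, these genes and Rps24 gave no usable level. The remaining 4, Rpl10l, Rpl39l, Rpl3l and Rpl32l, are paralogs or copies, known for expression in testis or muscle in the case of Rpl10l, Rpl39l and Rpl3l, and averaged 0.806 to 1.81 counts. The paralog Rps4l had no row in the table.

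The first comparison was of age in WT kidneys. From P1 to P7 the ribosomal protein genes fell together in both models, by a median of 0.52 (Pkd1 model) and 0.44 (Pkd2 model) on the log2 scale. In the Pkd2 model 65 of the 67 genes were lower at P7 (edgeR's quasi-likelihood test, adjusted p under 0.05) and 0 higher, where 13.6% of all 12633 transcripts tested were lower. In the Pkd1 model 45 were lower and 0 higher, where 13.2% of 12527 were lower. All 45 were among the 65. The Pkd1 count was 11 without WT library 3 of P1, 18 without WT library 2 of P7 and 21 without WT library 1 of P7, at medians no nearer to 0 than -0.32, while the Pkd2 count was 61 or more without any library. The median over all transcripts was 0.0062 (Pkd1 model) and 0.0089 (Pkd2 model).

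Rpsa, a small subunit protein also known as the laminin receptor precursor, fell most in the Pkd2 model. Its level was 1883, 2070 and 2363 CPM at P1 and 1273, 1359 and 1323 CPM at P7, so the groups did not overlap. The log2 fold change was -0.66 (SE 0.084, adjusted p = 5.73e-05). In Pkd1 WT kidneys it went from 2320, 2348 and 3256 CPM at P1 to 1659, 1282 and 1935 CPM at P7. Again every P7 library lay below every P1 library, with log2 fold change -0.70 (SE 0.16, adjusted p = 0.00485).

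Rpl12 sits at the base of the stalk to which translation factors bind. In Pkd2 WT kidneys its level was 1067, 1152 and 1323 CPM at P1 and 738, 722 and 768 CPM at P7. It fell in both models, with log2 fold changes of -0.65 (SE 0.081, adjusted p = 4.95e-05) and, in the Pkd1 model, -0.76 (SE 0.16, adjusted p = 0.00282). The Pkd1 WT libraries had 1198, 1319 and 1670 CPM at P1 and 806, 703 and 969 CPM at P7, without overlap. Rps26, a small subunit protein at the exit of the messenger RNA channel, had log2 fold changes of -0.76 (Pkd1 model) and -0.55 (Pkd2 model), and both passed the test. Rpl32 of the large subunit was also among the largest falls of the Pkd1 model, at -0.69.

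The fall was shared by the parts of the ribosome. In the small subunit 27 of 29 genes were lower in the Pkd2 model and 19 of 29 in the Pkd1 model, with medians of -0.43 and -0.54. In the large subunit 35 of 35 and 25 of 35 were lower, with medians of -0.45 and -0.50. Of the stalk proteins, all 3 passed in the Pkd2 model and Rplp0 alone in the Pkd1 model (-0.60, adjusted p = 0.0022). Rpl5 and Rpl11, which carry 5S rRNA into the ribosome and bind Mdm2 when they are free, fell in both models, by 0.52 and 0.51 in the Pkd1 model and by 0.33 and 0.38 in the Pkd2 model. Rpl23, also a binder of Mdm2, fell as well, by 0.53 and 0.42. Rps6 fell by 0.57 and 0.38.

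Only Rps27l and Rps24 did not pass in the Pkd2 model. Rps27l had 102, 99.8 and 99.2 CPM at P1 and 97.9, 102 and 92.8 CPM at P7 in Pkd2 WT kidneys, with log2 fold change -0.025 (SE 0.064, adjusted p = 0.814). It did not pass in Pkd1 WT kidneys either, at -0.019 (SE 0.12). Rps24, with its few counts, had log2 fold changes of 0.20 (SE 0.34) and 0.10 (SE 0.23). Across the 67 genes the log2 fold changes of both models correlated with Pearson's r of 0.85 and Spearman's rho of 0.58. Without Rps27l and Rps24 r was 0.69 (65 genes). These coefficients describe genes, which are not independent replicates, and the models share no library.

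**Figure D2:**
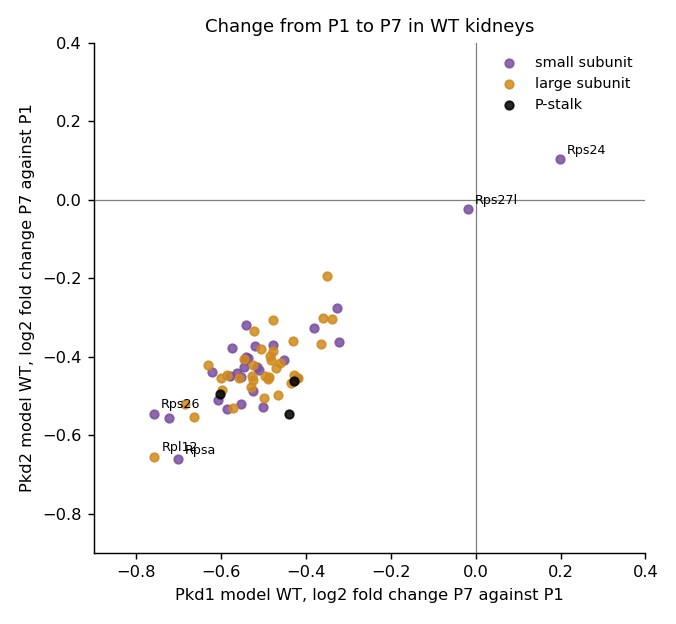
Log2 fold change from P1 to P7 in WT kidneys for the 67 genes, in the Pkd1 model (horizontal axis) and the Pkd2 model (vertical axis). Each point is a gene, coloured by subunit. The values run from -0.76 to 0.20 in the Pkd1 model and from -0.66 to 0.10 in the Pkd2 model, with Rps27l at -0.019 and -0.025 and Rps24 at the upper end of both.

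The intermediate day was compared with P1 and P7. In the Pkd2 model 56 genes were lower at P7 than at P3 (median -0.29, where 14.7% of all transcripts were lower). That count was 19 under a per-library offset for length and GC content, and 43 without WT library 2 of P3, which carried 3727 CPM of adrenal cortex markers. From P1 to P3 none passed the test (median -0.14), although 24 had an unadjusted p under 0.05 and DESeq2 called 2. Of all transcripts 1.43% passed and 19.5% had an unadjusted p under 0.05. In the Pkd1 model the median was -0.48 from P1 to P3, and 64 genes had an unadjusted p under 0.05. None passed edgeR's adjusted test there, while DESeq2 called 19, and of all transcripts 0.439% passed and 15.8% had an unadjusted p under 0.05. From P3 to P7 the Pkd1 median was -0.045, and 0 genes passed with either tool (1 at an unadjusted p under 0.05), where 16.3% of all transcripts passed and 31.1% had an unadjusted p under 0.05. Y-linked counts over 100 were present in 2, 3 and 0 of the 3 Pkd1 WT libraries at P1, P3 and P7, so that age and sex cannot be told apart from P3 to P7, and in 1, 1 and 2 of the Pkd2 WT libraries. Their part in the other age comparisons of WT kidneys was not tested. The 2 Pkd1 libraries numbered 3 at P1 bear on these values, and without them, a choice made after seeing the data, the Pkd1 median was -0.31 from P1 to P3. The median from P1 to P7 was then -0.34, with 24 genes lower. The difference in timing between models was not tested.

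Cell type markers moved with age as well. The 3 proliferation markers were lower at P7 in both models (3 of 3), with summed levels of 704 to 1097 CPM in the 6 WT libraries at P1 and 305 to 578 at P7. The 2 nephron progenitor markers fell from 49.2 to 82.3 CPM at P1 to between 0.0737 and 0.821 at P7. Podocyte and proximal tubule markers rose. Of the podocyte markers 3 of 3 were higher in both models (medians 0.82 and 0.95), and of the proximal tubule markers 2 and 4 of 4 (medians 1.11 and 1.03). The summed collecting duct markers rest on Aqp2 and overlapped between the days. They were at 334 to 480 CPM at P1 and 256 to 560 at P7 in Pkd1 WT kidneys. In Pkd2 WT kidneys they were at 385 to 788 and 229.9 to 688 CPM. Endothelial markers were at 389 to 407 and 370 to 476 CPM in the Pkd1 model. In the Pkd2 model they were at 398 to 438 and 445 to 459 CPM. The part of these cell types in the fall of the ribosomal protein genes was not tested.

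In the comparison of KO with WT kidneys no ribosomal protein gene passed the test at the earlier days. At P1 none of the 67 genes passed in either model (0 at an unadjusted p under 0.05 and 0 by DESeq2), with medians of 0.0092 and 0.020. At P3 the medians were 0.10 and -0.037, and again none passed in edgeR or DESeq2, with 8 and 0 genes at an unadjusted p under 0.05. The log2 fold change at P3 was positive for 64 of the 67 genes in the Pkd1 model and negative for 61 in the Pkd2 model. The median over all transcripts was -0.0021 and -0.0091. Counts of signs, here and below, are not independent observations, since 58 of the 67 genes had r above 0.9 with the mean of the others over libraries. Of all transcripts 0% passed at P1 and P3, except for 1 of 12527 (0.00798%) in the Pkd1 model at P3. An unadjusted p under 0.05 was reached by 1.25% and 14% of transcripts in the Pkd1 model at P1 and P3, and by 5.6% and 4.47% in the other model. The median standard error of the 67 genes was 0.19 at P1 and 0.073 at P3 in the Pkd1 model, and 0.084 and 0.051 in the Pkd2 model. At P1 of the Pkd1 model, Y-linked counts over 100 were present in 2 of 3 WT and 0 of 3 KO libraries. The median there was 0.17 with a term for Y-linked transcripts, and -0.16 to 0.20 when single libraries were left out. In this model only the WT group at P1 held libraries both with and without such counts, so the term rests mainly on it. In the Pkd2 model 1 of 3 WT and 0 of 3 KO libraries had such counts at P1 and at P3.

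At P7 the ribosomal protein genes were higher in Pkd1 KO than in WT kidneys. The median log2 fold change was 0.62, a 1.54-fold difference, and 36 of the 67 genes passed the test, all higher, where 6.32% of all transcripts were higher. Of the 67 genes, 66 had a positive log2 fold change and 61 had KO and WT libraries that did not overlap, where 20.1% of all transcripts were higher without overlap. The share of all counts on the 67 genes was 5.95%, 4.996% and 7.10% in WT and 8.40%, 9.35% and 8.05% in KO kidneys. The groups thus lay apart, with the third WT library nearest to the KO libraries.

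Rpl12 had the largest rise. Its WT levels of 806, 703 and 969 CPM stood against 1470, 1793 and 1415 CPM in KO, with no overlap and a log2 fold change of 0.91 (SE 0.16, adjusted p = 0.0148). The 6 libraries of this model at P1 ranged from 1198 to 1727 CPM. Rpl36a, a large subunit protein encoded on the X chromosome, had 455, 356 and 580 CPM in WT and 894, 905 and 763 CPM in KO. Here too every KO library was above every WT library, with log2 fold change 0.87 (SE 0.18, adjusted p = 0.0229).

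Rps12, in the beak of the small subunit, had 1060, 862 and 1418 CPM in WT and 1926, 2363 and 1796 CPM in KO, again apart, for a log2 fold change of 0.86 (SE 0.20, adjusted p = 0.0312). Rpl17, at the exit of the peptide tunnel, and Rpl24, at the contact between the subunits, completed the 5 largest rises at 0.84 (SE 0.18) and 0.81 (SE 0.19). Rps23, a protein of the decoding centre, rose by 0.80 (SE 0.17, adjusted p = 0.0236). Its WT libraries had 752, 671 and 999 CPM and its KO libraries 1418, 1534 and 1274 CPM, which did not overlap.

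Rps6 rose by 0.62 (SE 0.16, adjusted p = 0.0424), from 1352, 1149 and 1666 CPM to 2109, 2372 and 1966 CPM, without overlap. Of the genes whose proteins bind Mdm2, Rpl11 (0.64) and Rpl23 (0.75) passed, and Rpl5 had 0.34 (SE 0.13, adjusted p = 0.117). Of the stalk genes Rplp2 passed (0.71), and Rplp1 (0.61) and Rplp0 (0.31) did not. Rps25 (0.56) passed. Rps19, mutated in Diamond-Blackfan anaemia, had 0.60 (SE 0.19, adjusted p = 0.0712). By subunit, 16 of 29 small and 19 of 35 large subunit genes passed, with medians of 0.62 and 0.63.

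A few genes of the large group stood near 0. Rpl3, a protein near the peptidyl transferase centre, had 1782, 1510 and 1822 CPM in WT and 1725, 1725 and 1830 CPM in KO. The groups overlapped, and the log2 fold change was 0.039 (SE 0.13, adjusted p = 0.851). Rpl32 had 883, 710 and 969 CPM in WT and 803, 921 and 986 CPM in KO, also overlapping, at 0.074 (SE 0.15). Rps4x, an X-linked small subunit gene, was at 0.19 (SE 0.14), while the X-linked Rpl36a (0.87) and Rpl39 (0.78) passed and the X-linked Rpl10 had 0.44 (SE 0.15, adjusted p = 0.0769). Rps24 had -0.58 (SE 0.43).

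**Figure D3:**
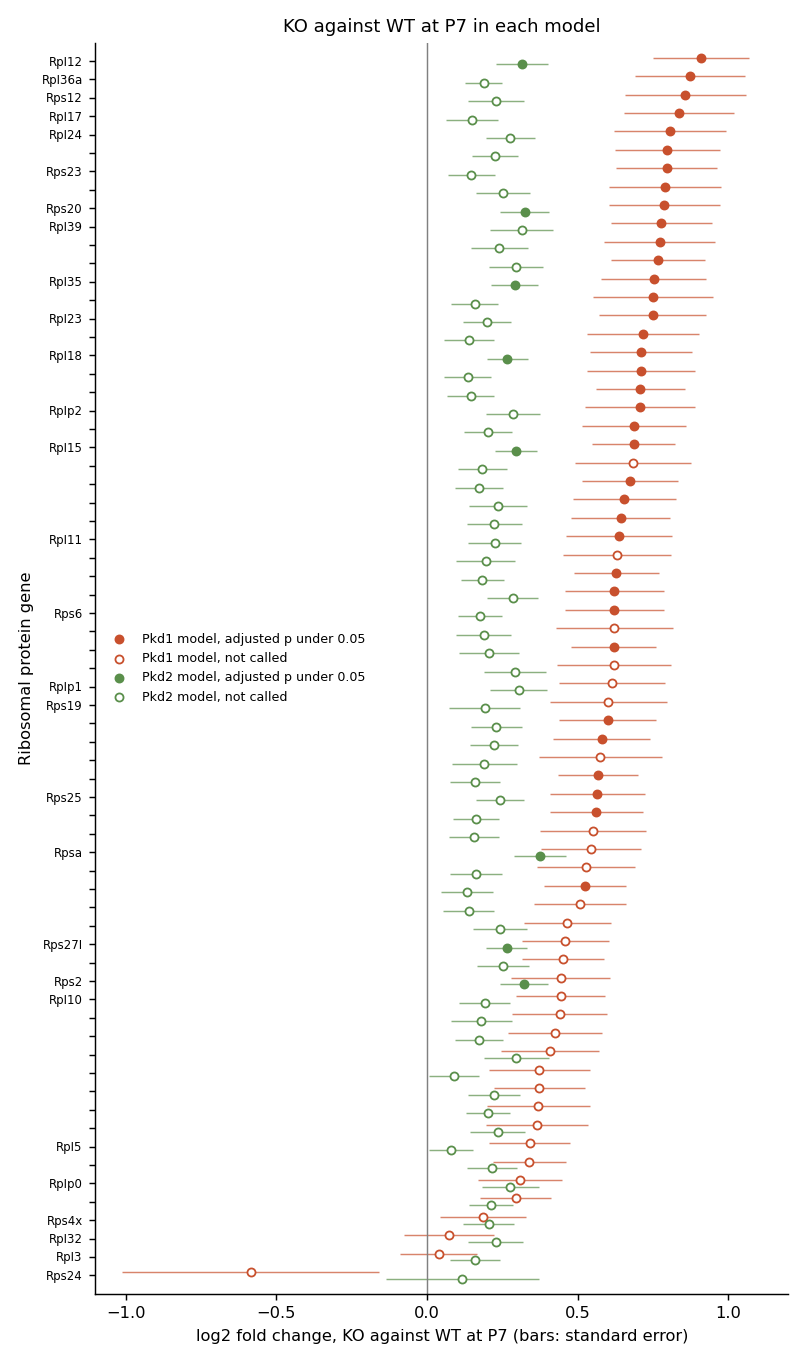
Log2 fold change of KO against WT at P7 (horizontal axis, bars are the standard error) for the 67 genes in the Pkd1 model (red) and the Pkd2 model (green), sorted by the Pkd1 model, with genes described in the text labelled. Filled points passed an adjusted p of 0.05. All but Rps24 lie above 0 in the Pkd1 model, and all 67 lie above 0 in the Pkd2 model, where they reach 0.37.

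The Pkd1 result at P7 depended on single libraries and on the fit. The count of 36 became 61 without WT library 3, the WT library with the highest share, and between 0 and 14 without any other library (0 without WT library 1 or KO library 2, 1 without KO library 1, 10 without WT library 2 and 14 without KO library 3), whereas the median stayed between 0.47 and 0.78. When all 18 libraries were fitted with a term for Y-linked transcripts, 0 genes passed and the median was 0.40. In that fit 6 of all 12527 transcripts passed (0.0479%).

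Transcript length moved with this comparison. The 67 genes are short, with a median of 833 nt against 2881 nt over all transcripts. Among other transcripts of the Pkd1 model at P7, the median log2 fold change ran from 0.46 for lengths up to 500 nt to 0.25 for the next bin up to 1000 nt and -0.17 over 4000 nt. In the same length bins the ribosomal protein genes had 0.62 and 0.63 as medians in the first and second bin, and 0.56 for the 1 gene in the last, Rps15a. Its paired transcript of 5179 nt is long for a coding length of 390 nt, and a GENCODE model of 640 nt has the same coding length, so it is no measure of long transcripts. With a per-library offset for length and GC content the median of the 67 genes was 0.32 and 25 passed. The share of all transcripts that passed under the offset is not given here. Rpl3, Rpl32, Rps4x, Rpl41 and Rps27l then had values below 0, of which the lowest was -0.33 (Rpl32). The share of the difference that goes with length was otherwise not tested.

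**Figure D4:**
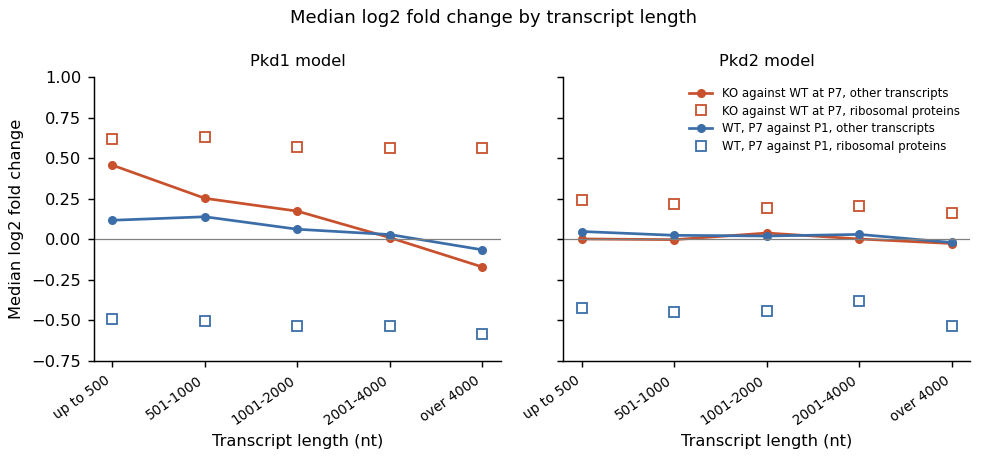
Median log2 fold change (vertical axis) by transcript length in nt (horizontal axis) for KO against WT at P7 (red) and for WT P7 against P1 (blue). Lines with filled points are all other transcripts tested and open squares the ribosomal protein genes, with 10, 36, 18, 2 and 1 genes per bin. In the Pkd1 model the red line falls with length from 0.46 to -0.17, and in the Pkd2 model it stays within 0.04 of 0, with the squares apart from the lines in both.

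In Pkd2 KO kidneys at P7 the rise had a smaller median, although none of the 67 differences between the models passed edgeR's test. The median log2 fold change was 0.21 (1.16-fold), and 8 of the 67 genes passed, all higher, where 7.88% of all transcripts were higher. All 67 genes had a positive log2 fold change, and 47 had groups that did not overlap, where 20.3% of all transcripts were higher without overlap. The shares of counts were 5.25%, 5.38% and 5.50% in WT and 6.75%, 5.58% and 5.97% in KO kidneys. The first KO library was the highest of the 6, and the second exceeded the highest WT library by little.

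Rpsa led the 8, with 1273, 1359 and 1323 CPM in WT and 1914, 1584 and 1664 CPM in KO. The groups lay apart, and the log2 fold change was 0.37 (SE 0.087, adjusted p = 0.0275). Rps20, in the head of the small subunit, had 621, 626 and 621 CPM in WT and 875, 725 and 752 CPM in KO, for a log2 fold change of 0.32 (SE 0.081, adjusted p = 0.0346). Rps2, near the entry of the messenger RNA channel, also stood at 0.32 (SE 0.079, adjusted p = 0.0334), with 1548, 1506 and 1424 CPM in WT against 2036, 1776 and 1820 CPM in KO. In both genes the lowest KO library was above the highest WT library.

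Rpl12 (0.32), Rpl15 (0.30), Rpl35 (0.29), Rpl18 (0.27) and Rps27l (0.26) were the other 5. Rpl15 is a large subunit core protein and Rpl35 lies at the exit of the peptide tunnel. For Rpl15 the WT libraries had 662, 676 and 680 CPM and the KO libraries 891, 767 and 836 CPM, without overlap (SE 0.071, adjusted p = 0.0311). Rpl12, Rpl15, Rpl18, Rpl35 and Rps20 had also passed in the Pkd1 model, which is 5 of the 8 and 5 of the 36. Rpsa, Rps2 and Rps27l had Pkd1 values of 0.55, 0.44 and 0.46 that did not pass. The smallest Pkd2 value was that of Rpl5 at 0.079 (SE 0.073).

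Transcript length did not move with the Pkd2 comparison, in which the medians of other transcripts lay between -0.03 and 0.04 in every length bin. The length and GC offset left a median of 0.17, and 2 genes passed. Leaving out a library gave 0 to 12 genes (0 without WT library 1, WT library 2 or KO library 3, and 4 without WT library 3 or KO library 1) at a median of 0.15 to 0.29. Y-linked counts were present in 2 of 3 WT and 3 of 3 KO libraries. In a fit of all 18 libraries 18 genes passed, and 19 with a term for Y-linked transcripts. The share of all transcripts that passed in the alternative fits of this paragraph is not given here.

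Between the models the KO effect at P7 differed by a median of 0.41 (Pkd1 minus Pkd2), or 0.18 under the length and GC offset. Genotype and sex cannot be told apart at P7 of the Pkd1 model, so nor can their parts in this difference. None of the 67 interactions passed edgeR's test, 30 had an unadjusted p under 0.05 and DESeq2 called 5. Over all 12343 transcripts tested in both models 0 (0%) passed and 17.3% had an unadjusted p under 0.05. Without WT library 3 of the Pkd1 model at P7 the count for the 67 genes was 36. The largest positive differences were those of Rpl17 and Rpl36a, both 0.70 (SE 0.21 and 0.20), while those of Rps4x and Rplp0 were -0.0096 and 0.041 (SE 0.16 each). Across the 67 genes the KO effects of the 2 models at P7 correlated weakly (Pearson's r 0.25, Spearman's rho 0.18), as a description over genes.

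Cell type markers moved with genotype at P7. The summed proliferation markers were at 400 to 578 CPM in Pkd1 WT and 589 to 650 in Pkd1 KO kidneys, and at 305 to 465 and 567 to 644 CPM in the Pkd2 model, where all 3 passed as higher (1 of 3 in the Pkd1 model). The 4 proximal tubule markers went the other way (3 and 4 of them passed as lower), at 3307 to 4397 against 1285 to 2212 CPM in the Pkd1 model and 3339 to 4388 against 2422 to 2681 CPM in the Pkd2 model. Of the 3 collecting duct markers, the lineage in which HoxB7-Cre acts, only Aqp2 was tested, and it was lower in KO of both models (-2.27 and -2.38). The summed level was 256 to 560 CPM in WT and 36.5 to 167 in KO of the Pkd1 model, and 229.9 to 688 and 42.7 to 126 CPM in the Pkd2 model, with Avpr2 at 0 in every group. It rests on Aqp2, since Avpr2 and Fxyd4 gave no usable level. A single gene does not measure how much collecting duct tissue was present. One KO library of each model carried adrenal cortex transcripts, at 1071 CPM (Pkd1 KO library 1) and 999.5 CPM (Pkd2 KO library 3), while the other P7 libraries had 7.36 to 13.8. Their part in the ribosomal protein result was not tested beyond leaving out each library.

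The age course within KO kidneys was compared next. In both models 0 of 3 KO libraries at P1 and 3 of 3 at P7 had over 100 Y-linked counts, so that age and sex cannot be told apart in these comparisons. In Pkd1 KO the median change from P1 to P7 was 0.078, with 1 gene higher and 3 lower, where 19.3% of all transcripts were higher and 20.5% lower. Rpl32 (-0.60, SE 0.13, adjusted p = 0.00222), Rpl3 (-0.47) and Rps4x (-0.43) fell as they did in WT kidneys. Rps27l rose by 0.44 (SE 0.12, adjusted p = 0.00711), from 91.6, 93.0 and 119 CPM at P1 to 140, 132 and 144 CPM at P7, without overlap. The median turned to -0.20 under the length and GC offset, with 21 genes lower and 0 higher. Without both P1 libraries numbered 3 it was 0.26, with 16 higher and 3 lower.

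In Pkd2 KO the median change from P1 to P7 was -0.24 with 37 genes lower (18 under the length and GC offset), where 10.4% of all transcripts were lower. Rps27l was again the 1 gene that was higher, where 12.5% of all transcripts were, at 0.19 (SE 0.064, adjusted p = 0.0395). The count of called genes ranged from 16 (without P1 KO library 1) to 59 (without P7 KO library 1) when single libraries were left out, against 38 with all. It was 17 without P7 KO library 2 and 21 without P7 KO library 3.

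The change of the KO effect from P1 to P7 was tested as an interaction. In the Pkd1 model its median was 0.61, and Rpl12 (0.88, SE 0.23, adjusted p = 0.0288), Rps12 (0.87, SE 0.26, adjusted p = 0.049) and Rps23 (0.80, SE 0.22, adjusted p = 0.0333) passed edgeR's test. These 3 of 67 genes are close to the 3.66% of all transcripts that were higher. In this model Y-linked counts over 100 were present in 2 of 3 WT and 0 of 3 KO libraries at P1. At P7 they were present in 0 of 3 WT and 3 of 3 KO libraries. In the Pkd2 model the median was 0.20 and none passed, with 16 at an unadjusted p under 0.05, 3 by DESeq2. Of all transcripts 1.12% were higher and 15.5% had an unadjusted p under 0.05. The Pkd1 count was 24 with DESeq2, 44 without KO library 3 of P1, 41 without WT library 3 of P7, 5 without KO library 3 of P7 and 1 without KO library 1 of P7. It was 0 without WT library 3, KO library 1 or KO library 2 of P1, and without WT library 1, WT library 2 or KO library 2 of P7.

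**Figure D5:**
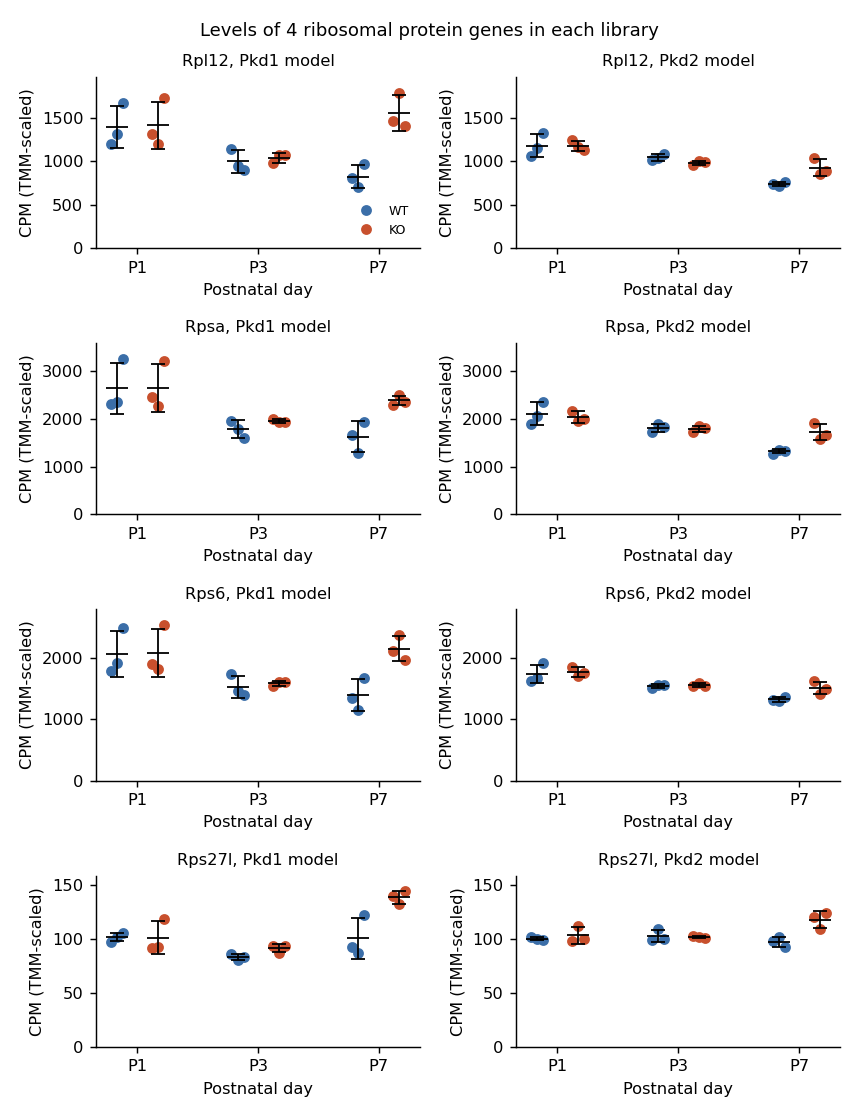
TMM-scaled CPM (vertical axis, from 0) of Rpl12, Rpsa, Rps6 and Rps27l by postnatal day for WT (blue) and KO (red) kidneys of both models. Points are libraries and bars the mean ± SD of 3. Rpl12, Rpsa and Rps6 are lower in WT at P7 than at P1, and Rps27l stays near 100 CPM in WT and stands at 109 to 144 CPM in KO at P7.

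WT kidneys of the models were compared at each day, where model cannot be told apart from any batch of breeding or library preparation. Y-linked counts over 100 were present in 2, 3 and 0 of 3 Pkd1 WT libraries at P1, P3 and P7. In the Pkd2 model 1, 1 and 2 of 3 WT libraries had them. At P3 Rps27l (-0.31), Rps14 (-0.27), Rpl27 (-0.27) and Rps2 (-0.21) were lower in the Pkd1 than in the Pkd2 model, where 1.55% of all transcripts were lower. That count was 0 without Pkd1 WT library 3 and 2 without Pkd1 WT library 2, Pkd2 WT library 2 or Pkd2 WT library 3. Under the length and GC offset 1 gene passed, and the median of the 67 genes turned from -0.078 to 0.077. At P1 and P7 none passed in edgeR (8 and 5 at an unadjusted p under 0.05, and 1 and 0 by DESeq2), with medians of 0.24 and 0.16. The log2 fold change was positive, thus higher in the Pkd1 model, for 66 and 64 of the 67 genes, which move together and are not independent. The median over all transcripts was 0.0071 and 0.0097. Of all transcripts 0.186% passed at P1 and 0.0486% at P7, and 11.8% and 7.42% had an unadjusted p under 0.05.

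Genes outside the symbol rule were compared with the 67. Over the 36 libraries, the genes whose log2 CPM correlated best with the mean of the 67 included Rps3a1 (r = 0.97), a ribosomal protein whose symbol the rule does not take, Eif3h of initiation factor 3 (0.95), the elongation factor subunit Eef1b2 (0.94) and Ppan of ribosome assembly (0.94). Among the 67, 58 had an r above 0.9 with the mean of the others. The lowest were Rps24 (-0.50), Rps27l (0.50), Rpl32 (0.72), Rpl3 (0.76) and Rps4x (0.82). These r are descriptions over libraries that share depth and scaling.

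Of 8 ribosomal genes outside the rule, Rps27rt had 0 counts, Fau had 4.47 on average with 3 transcripts listed, and the other 6 were tested. Rps3a1 was lower with age in WT kidneys of both models (-0.54 and -0.36) and higher in Pkd1 KO at P7 (0.81, SE 0.16, adjusted p = 0.018). Rack1, a scaffold on the small subunit, was lower with age by 0.60 and 0.45 and had 0.26 (SE 0.12) in Pkd1 KO at P7. Rpl22l1, a paralog of Rpl22, was higher in Pkd1 KO at P7 (0.64, adjusted p = 0.0435). None of the 6 passed in Pkd2 KO at P7, where their median was 0.20.

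Other genes of the translation machinery were read against 13.2% (Pkd1 model) and 13.6% (Pkd2 model) of all transcripts lower in WT kidneys from P1 to P7. Of these lists, 29 of 42 ribosome biogenesis genes were lower in the Pkd1 model and 31 of 42 in the Pkd2 model (medians -0.45 and -0.42). Of 25 initiation factor genes 14 were lower in each model, and of 7 elongation factor genes 3 and 5. Among 18 other messages with a terminal pyrimidine tract 12 and 15 were lower, such as Npm1, a nucleolar chaperone (-1.30 and -0.60), and Pabpc1, the poly(A)-binding protein (-0.57 and -0.45). None of these lists had a gene that was higher. Of 73 mitochondrial ribosomal protein genes 4 and 3 were lower and 0 higher, with medians of 0.0081 and -0.051.

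The same lists were read for KO against WT at P7, where 6.32% (Pkd1 model) and 7.88% (Pkd2 model) of all transcripts were higher. Ribosome biogenesis genes were higher in 10 of 42 cases in each model (medians 0.28 and 0.16), and other messages with the tract in 5 and 3 of 18. Npm1 was among the 5, at 1.42 (SE 0.18, adjusted p = 0.00703), and Ybx1, a cold shock protein that binds messenger RNA, passed in both models (0.66 and 0.25). Initiation factors were higher in 3 of 25 in each model, with 1 lower in the Pkd1 model, and elongation factors in 2 and 0 of 7. Of the mitochondrial ribosomal protein genes 4 of 73 were higher in the Pkd1 model (median 0.25) and 0 in the Pkd2 model, with 1 lower (median 0.027).

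Of 19 regulators of ribosome production the Pkd1 fit tested 9 and the Pkd2 fit 10. Eif4ebp1, an inhibitor of cap-dependent initiation, was higher at P7 in KO of both models, by 0.89 (SE 0.14, adjusted p = 0.0121) and 0.61 (SE 0.094, adjusted p = 0.00616). Mtor (-0.71, adjusted p = 0.0187) and Eif4ebp2 (-1.32, adjusted p = 0.0327) were lower in Pkd1 KO, and had -0.18 and -0.035 in Pkd2 KO without passing. In this Pkd1 comparison genotype cannot be told apart from sex, and short transcripts tended to be higher and long ones lower. The part of transcript length in the values of the regulators was not tested. With age in WT kidneys Mycn, a transcription factor of growing progenitors, fell by 2.04 and 2.25 on the log2 scale. Larp1, which binds the pyrimidine tract, fell by 0.27 in the Pkd2 model (adjusted p = 0.00505). From P1 to P7 within Pkd1 KO kidneys 3 of the 9 were higher, namely Eif4ebp1 (0.64), the S6 kinase gene Rps6kb2 (0.59) and Rheb, an activator of mTOR (0.31), and 4 were lower, namely Mycn (-1.94), Eif4ebp2 (-1.61), Mtor (-0.66) and Larp1 (-0.34). In Pkd2 KO kidneys 2 of 10 were higher and 1 lower.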

How the data were processed

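Total RNA of mouse kidneys was extracted with TRIzol, and the authors mapped reads to mm10 with TopHat2 2.1.0 after base calling with CASAVA 1.8.2. The deposited table holds raw counts per RefSeq transcript from HTSeq with default options, with neither the filter nor the TMM normalization of the study applied. By default HTSeq counts by strand, and whether the kit marked strand is not given in the sources used here. The table holds 29996 transcripts, of which 28978 were paired with a symbol through a RefSeq table of GRCm38.p6 and 28877 with a transcript length of GENCODE M21.

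The gene rule and all lists were chosen with earlier results of these data known. The transcript with the highest mean represented a gene. A transcript entered the fit of a model when 3 or more of its 18 libraries had 10 counts or more, and groups were compared with edgeR 4.0.16 (R 4.3.3), the quasi-likelihood test on TMM-normalized libraries, with p-values adjusted over all transcripts by the Benjamini-Hochberg method. KO and WT were fitted on the 6 libraries of a day, age contrasts on the 18 libraries of a model, and model contrasts on the 12 of a day. The standard error is the log2 fold change over the square root of F. Levels are CPM over all 36 libraries. For levels per kilobase, the shortest GENCODE transcript with the same coding length was taken. Named genes are the 5 largest called rises and falls per comparison, the highest and lowest levels, members of the role lists, genes that failed the filter, listed genes that passed, the 5 genes closest in correlation, and library checks. Rps23, Npm1, Pabpc1, Ybx1, Rpl27, Rps14 and genes near 0 were named after their values were seen. Some results that the rule would name are not reported here.

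Alternatives were DESeq2 1.42.0, RLE factors, TMM without the 67 genes, no filter, 10 counts in every library, rows of a gene summed, a length and GC offset, a replicate block, one fit per model, Y-linked counts as a covariate, and leaving out each library. The steps were tested on simulated data. Depth was 7179152 to 15850818 counts a library. Over 36 pairs of replicates the chi-square a transcript was 5.15 to 64.0, so the spread between libraries exceeded counting error. According to the paper the controls were littermates of the same age, but no source names the litter or batch of a mouse. The main fits therefore carry no litter term, and p-values measure the spread between libraries.

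The replicate numbers of WT and KO were checked on deviations from the group means. Same-numbered libraries correlated at 0.21 to 0.53 in the Pkd1 model at P1, where the numbers were taken as pairs from the data, and not in every pair of the other 5 comparisons. Miscounted isoforms and paralogs are uncertain, since shared reads are not recorded.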

Additional observations from a re-analysis of the deposited data

Results flagged for a closer look

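The KO effect differed between P7 and P1 in the Pkd1 model for 3 ribosomal protein genes, by edgeR's interaction test with adjusted p under 0.05. The difference of log2 fold changes (P7 minus P1) was 0.88 for Rpl12, 0.87 for Rps12 and 0.80 for Rps23. These 3 of 67 genes are close to the 3.66% of all transcripts called higher, so this count does not set the 67 genes apart. It was 0 without any of 6 single libraries and up to 44 without another. At P1 the KO effect of the 67 genes had a median of 0.01, and at P7 of 0.62. In the Pkd2 model 0 genes passed the same test, with 16 at an unadjusted p under 0.05 and 3 by DESeq2. The 3 genes are among the short transcripts, and genotype cannot be told apart from sex at P7 of the Pkd1 model. At P1 of that model, Y-linked counts over 100 were present in 2 of 3 WT and 0 of 3 KO libraries.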

How the results depend on the processing

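Leave-one-out fits aside, 360 counts and medians over the 67 genes kept their direction and stayed within 1.5 times the count or 1 SD between libraries, 36 moved further and 2 medians turned. The cause was not tested except where fewer libraries or transcripts entered. Shares of all transcripts that passed under these alternatives are not given here. The counts therefore do not show whether the 67 genes moved apart from the rest. DESeq2 called 56 genes in Pkd1 KO and 23 in Pkd2 KO at P7, 19 and 2 from P1 to P3 in Pkd1 and Pkd2 WT, 24 and 3 for the change of the KO effect, 1 for WT between models at P1, and 1 and 5 for the KO effect between models at P3 and P7. The length and GC offset gave a median of 0.32 in Pkd1 KO at P7 (Rpl3 -0.086, Rpl32 -0.33, Rpl41 -0.058, Rps27l -0.0052, Rps4x -0.034) and 2 genes in Pkd2 KO at P7. It gave 4 genes in Pkd1 WT and 19 in Pkd2 WT from P3 to P7, 21 (median -0.20) in Pkd1 KO and 19 in Pkd2 KO from P1 to P7, and 0.042 for Rps27l in Pkd2 WT. The median was 0.36 for the Pkd1 change of the KO effect, 0.077 (1 gene) for WT between models at P3 and 0.18 for the KO effect between models at P7.

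A replicate block left 2 genes in Pkd1 KO and 1 in Pkd2 KO at P7, where the pairing check did not tie the numbers, and gave 21 for the Pkd1 change of the KO effect. With the block and the offset 1 gene passed in Pkd1 KO (median 0.32, Rpl3 -0.084, Rpl32 -0.33, Rpl41 -0.057, Rps27l -0.0072, Rps4x -0.032) and 0 in Pkd2 KO. At P1 of the Pkd1 model 0 genes passed with the block and 0 without. There the numbers were taken as pairs from the data, and no source states a pairing. A term for Y-linked transcripts gave a Pkd1 median of 0.17 at P1 and 0.40 at P7 (0 genes, Rpl3 -0.15, Rpl32 -0.059), and 19 genes in Pkd2 KO at P7, against 18 in the fit of 18 libraries. In the Pkd1 model that term rests mainly on the WT libraries of P1 and cannot separate sex from genotype at P7. Requiring 10 counts in every library gave 8 for the Pkd1 change. Without both P1 libraries numbered 3, chosen after seeing the data, Pkd1 WT had a median of -0.31 at P3 and -0.34 (24 genes) at P7, Pkd1 KO 0.26 (19 genes), and the Pkd1 change 18 genes.

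With each library left out in turn, Pkd1 KO against WT had a median of -0.16 to 0.20 at P1 and 0 to 61 genes at P7, and Pkd2 KO 0 to 12. Pkd1 WT had a median of -0.57 to -0.30 from P1 to P3, 0 to 1 genes from P3 to P7, and 11 to 62 genes (median -0.68 to -0.32) from P1 to P7. Pkd1 KO had 3 to 8 genes from P1 to P7 (median -0.034 to 0.26, and -0.0014 without KO library 2 of P7), and Pkd2 KO 16 to 59. The change of the KO effect had 0 to 44 genes (median 0.43 to 0.79) and 0 to 2. Between models the ranges were -0.17 to 0.18 for the median KO effect at P1, 0.070 to 0.33 for the WT median at P1, 0 to 6 genes for WT at P3 and 0 to 36 for the KO effect at P7. Signs turned for Rpl3 (-0.045 to 0.079) and Rpl32 (-0.046 to 0.16) in Pkd1 KO at P7 and for Rps24 (-0.061 to 0.36) in Pkd2 KO. From P1 to P7 they turned for Rps27l (-0.18 to 0.077 in Pkd1 WT, -0.059 to 0.0095 in Pkd2 WT) and Rps24 (-0.068 to 0.47 and -0.14 to 0.28). Few counts limit Rps24 and the 14 genes that failed the filter, and 3 libraries a group limit every test.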
